A study of Mus musculus with 2 samples.

Results

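The 7 genes Sox10, Egr2, Erbb3, Ngfr, Pmp22, Mbp and S100b mark Schwann cells and their myelin, and are described here through open chromatin in mouse calf muscle. They were chosen by name as regulators, receptors, myelin proteins and a classical marker of this cell type, and are 7 of 21853 protein-coding genes in the annotation. Each gene's locus was its body plus 50 kb on either side in the mouse genome build mm10 (GRCm38), with gene models from GENCODE M21.

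DNase-seq, which sequences the ends of DNA fragments that the enzyme DNase I cuts from accessible chromatin in nuclei, was made from whole gastrocnemius, the main calf muscle, of B6CASTF1/J mice. These are F1 hybrids that carry 1 set of chromosomes of the C57BL/6 reference type and 1 set of CAST type, and all were males at 10 days of age. There was 1 group of 2 libraries, biological replicates 1 and 2, without any treatment or second tissue. Each library's label names 3 males, both point to the same donor record, and neither says whether tissue was pooled, so differences between the libraries show only the spread between these samples and may be technical in part.

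Schwann cells wrap the motor and sensory axons that enter a muscle, and those around large axons build the peripheral myelin sheath, a process that in mice is most active in the first weeks after birth. SOX10 is needed at every stage of the lineage and acts with the zinc finger factor EGR2 (Krox20) to switch on genes of compact myelin such as Pmp22 and Mbp. Axonal neuregulin signals to Schwann cells through ERBB3 paired with ERBB2, and the neurotrophin receptor NGFR (p75) is typical of immature and non-myelinating Schwann cells. In a muscle these cells are a small part of all nuclei, most of which belong to myofibres and to connective tissue, and in such bulk tissue fewer open cells and less opening per cell cannot be told apart.

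Replicate 1 held 123255 peaks and 310961 footprints, and replicate 2 held 150088 peaks and 373154 footprints. A footprint is a short stretch inside open chromatin that was cut less than its surroundings, and only footprint positions were used. The deposited peak value is a depth-scaled signal made of whole steps of 0.00544 in replicate 1 and 0.00587 in replicate 2. Each step was taken as 1 tag, a cut position read by sequencing, which was inferred from the values alone. On that reading the median peak stood on 134 tags in replicate 1 and 122 tags in replicate 2. Values are given for replicate 1 and then for replicate 2, and all 95% intervals are exact Poisson intervals of the tags, which cover counting error only since PCR copies were not told apart. All 12 myofibre genes read to check the tissue label had a promoter peak in both libraries, against 66% of all coding genes, though their median of 2.91 was below the 5.59 of all open promoters. They ranged from Myh4 (0.631 and 0.874), a fast myosin heavy chain, to Ckm (6.06 and 9.60), the muscle creatine kinase, and Mylpf (8.48 and 11.5), the fast myosin light chain, whose peak also lay at the start of Tbc1d10b.

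Of the 7 genes, 6 had an open promoter in both libraries, against 66% of all coding genes. A promoter counted as open where any peak touched the window from 500 bp before to 500 bp after a coding transcript's start, and its value was that of the highest such peak. Taken in 1 library at a time the count was 6 in replicate 1 and 6 in replicate 2, against 67.8% and 68% of coding genes. Sox10 was the gene without a peak at any of its 3 coding starts, as was found in both libraries for 30.2% of coding genes. The median value over the 6 open promoters, each averaged over the libraries, was 1.62, and the median of all open coding promoters was 5.59. Ngfr, Erbb3, S100b and Mbp, 4 of the 6 open promoters, lay under a mean of 2, as did 3270 of the 14419 open coding promoters. With closed genes counted in, these were 4 of the 7 genes and 15% of all coding genes.

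The order of the promoter values was Egr2, Pmp22, Ngfr, Erbb3, S100b and Mbp. Egr2 read 6.90 and 9.01, above the typical open promoter of the same library (4.64 and 6.44), and Pmp22 read 4.0 and 6.27, just below it. The Pmp22 values came from different neighbouring peaks, since the highest of each library was taken. Ngfr followed with 1.40 and 2.22, Erbb3 with 1.40 and 1.44, S100b with 0.734 and 2.02, and Mbp with 0.941 and 0.968. The libraries' values of Egr2 and Pmp22 did not overlap with each other or with those of the other 4 genes, while Ngfr, Erbb3 and S100b overlapped, and so did S100b and Mbp, so the order within the lower 4 is not firm. Expressed as ranks, 64.6% of open coding promoters were lower than Egr2, 46.8% lower than Pmp22, 21% lower than Ngfr, 17.1% lower than Erbb3, 16.6% lower than S100b and 10.9% lower than Mbp.

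**Figure D1:**
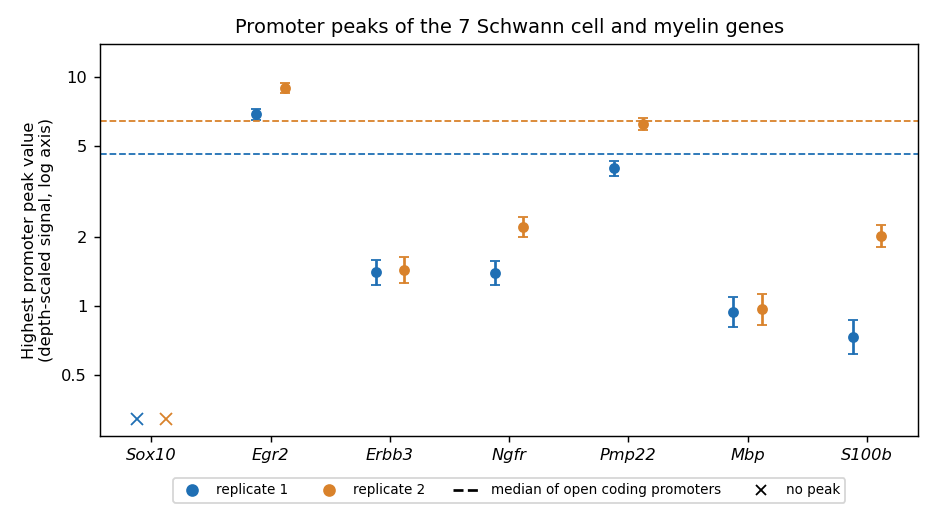
Highest peak value within 500 bp of a coding start of each gene (log axis, depth-scaled signal), as points for replicate 1 (blue) and replicate 2 (orange) with exact 95% Poisson intervals of the tags; dashed lines are the medians of all open coding promoters in the same library, 4.64 and 6.44, and a cross marks a gene without a peak. Egr2 is above the lines in both libraries and Sox10 has no peak. The intervals of the 2 libraries stand apart for Egr2, Pmp22, Ngfr and S100b and overlap for Erbb3 and Mbp.

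Sox10, the transcription factor that defines the lineage, lies at chr15:79154908-79165240 on the minus strand. Not a base within 500 bp of its 3 coding starts was listed in either library at a false discovery rate (FDR) under 0.05 for its cut rate, which was also so for 29.3% of coding genes. The nearest peaks to the gene start were each seen in a single library: 1 in replicate 2 at 1670 bp upstream (0.563, 96 tags), and 2 in replicate 1 inside the gene at 1748 bp (0.555, 102 tags) and 2224 bp (0.680, 125 tags). Widening the promoter to 1000 bp brought in the 0.555 peak of replicate 1 and nothing in replicate 2. The nearest shared peak to any Sox10 start was 15713 bp away. That distance or more was found for 19% of all coding genes. It was found for 59.2% of the 6596 coding genes without a promoter peak in either library, so Sox10 was not unusual among these.

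Around that closed promoter the Sox10 locus was not empty. It held 13 shared peaks, meaning peaks of both libraries paired by overlap, or 11.8 per 100 kb, and 80.9% of coding loci had fewer. Most lay far from the gene: with flanks of 10 kb in place of 50 kb 1 shared peak was left, and the stricter peak set left 7 of the 13. The highest, 23.9 kb past the Sox10 start, sat on the starts of the neighbours Polr2f and 1700088E04Rik (7.98 and 8.52). The next was 16.5 kb past the start in an intron of Polr2f, which encodes an RNA polymerase subunit, and was higher in replicate 1 (7.02 and 4.24). The third lay at the start of Micall1, 56.1 kb past the Sox10 start (3.19 and 3.69). Upstream, where neural crest enhancers of Sox10 are known, 6 shared peaks in the noncoding gene Gm10863 had lower values, from 0.653 to 1.25 in replicate 1 and from 0.646 to 1.72 in replicate 2. The highest of these upstream peaks lay 28.0 kb before the start (1.25 and 1.72, 229 and 293 tags) and held a paired arrangement of SOX letters, in which ACAA faces TTGT with 7 to 9 bases between.

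Of the 9 shared peaks of the Sox10 locus that lie away from any start, the highest on each side of the Sox10 start are shown as examples. They are given in the direction of Sox10, so on the minus strand of mm10, 5′ to 3′, at chr15:79148661-79148860 for the Polr2f intron and chr15:79193161-79193360 for the upstream peak. Capitals mark bases inside a footprint of both libraries.
Polr2f intron, 16.5 kb past the Sox10 start: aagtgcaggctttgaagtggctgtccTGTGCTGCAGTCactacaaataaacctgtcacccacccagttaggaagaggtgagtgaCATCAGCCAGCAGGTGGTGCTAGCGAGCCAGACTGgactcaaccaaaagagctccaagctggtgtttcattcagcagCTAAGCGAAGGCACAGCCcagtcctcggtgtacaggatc
Gm10863 intron, 28.0 kb before the Sox10 start: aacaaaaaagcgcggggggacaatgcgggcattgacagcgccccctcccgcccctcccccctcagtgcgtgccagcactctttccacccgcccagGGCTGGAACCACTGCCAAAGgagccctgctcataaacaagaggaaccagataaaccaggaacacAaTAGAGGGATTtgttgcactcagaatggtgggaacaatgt
The Polr2f intron peak contained the EGR letters GNGTGGGNG (as cacccaccc on the strand shown), outside the footprint bases. The SOX pair of the upstream peak was the only one found in the 30 bp centred on a shared footprint anywhere in the 7 loci. It made 1 of 209 (0.478%), against 0.0356% of all shared footprints, and a single match cannot show an excess. The ACAA and TTGT letters of the pair lay mostly outside the footprint bases, which covered those between them. The window, chr15:79193181-79193210, is repeated here with the pair in capitals.
SOX pair at the upstream Sox10 footprint: caggaacACAATAGAGGGATTTGTtgcact

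Egr2, the zinc finger factor that drives myelination, lies at chr10:67535475-67542188 on the plus strand and had the most accessible promoter of the 7. Its 6 coding starts fall into groups that differed in value. The first annotated start, at position 67535475, had a peak of 1.06 and 0.622 (194 and 106 tags), lower in replicate 2 than in replicate 1. The starts at 67537869, 67537870 and 67537930 shared a peak of 6.90 and 9.01 (1269 and 1535 tags), where the lowest FDR was 3.80e-43 and 6.78e-56. The last start, at 67538683, had low peaks, of which the highest read 0.750 in replicate 1 and, at another place, 0.499 in replicate 2 (138 and 85 tags). A second strong peak lay just upstream of the shared one, 1996 bp past the gene start (4.30 and 7.69), and a peak of 3.52 and 3.37 lay 686 bp past the gene start. The latter touched the promoter window of the remaining start, at 67535583, and was the highest peak there in both libraries. Across the locus there were 13 shared peaks, of which 5 were at Egr2 starts, and the third highest, 13.6 kb past the gene start, belonged to the start of the neighbour Ado (4.75 and 6.80). Next to it replicate 2 alone had a peak of 3.67, the highest of all peaks in the 7 loci that were found in 1 library.

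Downstream of the gene, where a Schwann cell enhancer of Egr2 is known to lie, the open chromatin ended early. Beyond 20 kb from the gene start there was 1 shared peak, at 42.9 kb (0.381 and 0.569, 70 and 97 tags), with 3 more peaks in replicate 2 alone and 0 more in replicate 1. The values of those 3 were 0.346, 0.440 and 0.370. These were among the lowest in the locus, while 12 of the 13 shared peaks lay closer to the gene.

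The Egr2 sequence below ends 1 base before the start at position 67537869 and covers the most accessible promoter peak of the 7 genes. It is the part of the RefSeq promoter table (build GRCm38) that precedes the start, chr10:67537619-67537868 on the plus strand, and capitals mark bases inside a footprint of both libraries.
Egr2 promoter, inner starts: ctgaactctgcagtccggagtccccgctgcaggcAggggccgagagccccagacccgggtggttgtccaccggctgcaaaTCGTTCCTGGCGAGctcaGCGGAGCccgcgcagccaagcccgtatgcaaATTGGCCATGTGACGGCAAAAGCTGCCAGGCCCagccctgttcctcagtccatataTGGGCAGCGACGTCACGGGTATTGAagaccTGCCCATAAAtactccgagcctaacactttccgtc
Of the 250 bases shown, 90 were inside shared footprints. The POU octamer letters ATGCAAAT began 127 bases before the start and reached 2 of their 8 bases into a footprint, and these letters occur on either strand in 1.74% of the 32851 RefSeq promoters of 300 bases. The letters of a serum response element (CC and GG around ATATAT), known from early response genes such as the Egr family, began 72 bases before the start and had 3 of 10 bases in a footprint. They occur in 0.0761% of RefSeq promoters (25 of 32851), and 3 of those 25 are Egr2 promoters. These 3 overlap and hold the same single site. Only these exact letters were searched, after this sequence had been seen, so the share does not show how rare serum response elements are. RefSeq promoters were also found for S100b, Pmp22 and Ngfr, so 4 of the 7 genes matched, and none of those of the other 3 matched genes held the serum response letters.

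Erbb3, the neuregulin receptor that Schwann cells need to survive and migrate, lies at chr10:128567523-128589652 on the minus strand with 1 coding start. Its promoter peak read 1.40 and 1.44 (258 and 245 tags), and the 2 libraries' intervals overlapped widely, from 1.24 to 1.59 and from 1.26 to 1.63. With a reciprocal overlap of at least 50% asked of paired peaks, Erbb3 no longer had a shared promoter peak. A peak 909 bp upstream read 2.32 and 1.53, and an intron peak 5741 bp inside the gene read 1.41 and 2.54. No other shared peak had its midpoint in an Erbb3 intron. The rest of the locus was dominated by neighbours: the 3 highest of its 17 shared peaks lay at the starts of Pa2g4 (8.56 and 19.9), Esyt1 (5.04 and 10.9) and Rpl41 (4.67 and 9.40), genes expressed in most cell types. With 13.9 shared peaks per 100 kb it was denser than 87.1% of coding loci, yet 8 of the 17 sat at starts of other genes, and within 10 kb of the gene 5 remained.

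The promoter and intron peaks of Erbb3 are printed because they are the parts of the locus that belong to the gene itself. Both are on the minus strand of mm10, chr10:128589681-128589760 and chr10:128583841-128583980, with shared footprint bases in capitals.
Erbb3 promoter peak: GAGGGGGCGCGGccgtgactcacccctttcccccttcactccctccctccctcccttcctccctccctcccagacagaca
Erbb3 intron peak: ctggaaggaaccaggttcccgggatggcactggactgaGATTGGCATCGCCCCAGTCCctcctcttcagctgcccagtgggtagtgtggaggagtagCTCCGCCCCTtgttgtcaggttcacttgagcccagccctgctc
The promoter peak held the AP-1 letters TGANTCA, and the intron peak held the letters CAGCTG, an E-box form bound by myogenic factors. Neither peak held the SOX letters ACAAAG or ACAATG.

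Ngfr, the p75 neurotrophin receptor, lies at chr11:95568818-95587735 on the minus strand with 1 coding start. The promoter peak read 1.40 and 2.22 (257 and 379 tags), and its intervals did not overlap (1.23 to 1.58 and 2.01 to 2.46). In the stricter of the 2 deposited peak sets it was absent from replicate 1. Inside the gene, 1334 bp past the start, an intron peak of 6.72 and 6.40 exceeded the promoter in both libraries. The 2 other leading peaks of the locus were intergenic, 53.8 kb (13.2 and 9.55) and 66.8 kb (7.09 and 5.34) past the start. All 3 contained the CTCF core inside a shared footprint, here CC, then 3 free bases, AGG, 1 free base and GGC, and all 3 read lower in replicate 2. CTCF is a factor that anchors chromatin loops in most cell types.

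The Ngfr locus held 19 shared peaks or 16 per 100 kb, more than 91.4% of coding loci, with none of them at the start of another gene. The stricter peak set left 10, fewer than the 14 of Erbb3, and flanks of 10 kb left 10, fewer than the 14 of Pmp22. Further, 11 peaks were seen in replicate 1 alone and 12 in replicate 2 alone. Of the former, 10 were crowded between 42122 and 48230 bp past the start, with values from 0.190 to 0.413, and 1 shared peak lay among them. The 12 of replicate 2 ranged from 0.188 to 1.74.

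The CTCF core letters at shared footprints are shown for 6 windows of 30 bases centred on the footprint in the Ngfr, Erbb3, Sox10 and S100b loci, since they carry the leading Ngfr peaks. Each window reads in the direction of its gene, on the minus strand for Ngfr, Erbb3 and Sox10 and on the plus strand for S100b, and capitals mark the core letters, which can stand on either strand.
Ngfr intron, chr11:95586399-95586428: aaaccccaggcgaCCCGCAGGGGGCactgc
Ngfr downstream, chr11:95533939-95533968: cgcggcatcgcagcGCCCCCTGCTGGccag
Ngfr downstream, chr11:95520921-95520950: cttccccgggccgcCCACCAGGTGGCgcgc
Erbb3 downstream, chr10:128536440-128536469: tttatcaCCACCAGGTGGCgcttaaggcac
Sox10 downstream, chr15:79126697-79126726: gatgctctagtgtGCCACCTTGTGGcacat
S100b upstream, chr10:76204154-76204183: ggaggaaagatgtGCCACCTACTGGcaagt
The CTCF core was found in 10 of the 98 shared peaks of the loci, against 7250 of 95319 in the genome. It was in the 30 bp centred on 12 of the 209 shared footprints of the loci (5.74%, against 3.58% of all shared footprints). The intron peak of Ngfr is printed whole, chr11:95586301-95586500 on the minus strand, with all shared footprint bases in capitals, because it is the strongest peak inside any of the genes Ngfr, Erbb3 and S100b.
Ngfr intron peak: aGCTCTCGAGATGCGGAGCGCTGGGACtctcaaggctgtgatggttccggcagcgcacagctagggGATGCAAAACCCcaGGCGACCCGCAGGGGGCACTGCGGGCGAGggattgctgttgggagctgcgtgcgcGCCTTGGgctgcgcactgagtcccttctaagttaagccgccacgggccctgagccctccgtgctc

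Pmp22, a membrane protein of compact myelin whose gene dosage must be kept within narrow limits, lies at chr11:63128982-63159547 on the plus strand. Its 4 coding starts had higher values toward the inside of the gene. The first, at position 63128982, is the start of the transcript known from myelinating Schwann cells and read 1.37 and 2.67 (252 and 455 tags). The start at 63131512 read 2.49 and 4.27, and those at 63132569 and 63133068, in the part of the gene known for transcripts of other tissues, read 4.0 and 6.27 (736 and 1069 tags). These last values were the highest of each library and came from different peaks. The peak 3669 bp past the gene start read 4.0 and 4.58, and the peak at 3989 bp read 3.45 and 6.27. In both libraries the first start was the lowest, and no library's interval at that start (1.21 to 1.55 and 2.43 to 2.93) reached that library's value at the later starts.

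Apart from its starts, Pmp22 had an intron peak 1759 bp past the gene start, which read 3.99 and 6.30 (734 and 1074 tags). Of the 16 shared peaks in the locus 8 had their midpoint in a Pmp22 intron. In replicate 2, 14 of the 16 were higher, against 64.6% of all shared peaks in the genome. None of the 16 held the SOX letters, the EGR letters or the TEAD letters ACATTCC within 150 bp around its midpoint.

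A pair of Pmp22 promoters whose start values differ is printed, both on the plus strand, with shared footprint bases in capitals. They are the 250 bases before the start in the RefSeq table, chr11:63128732-63128981 and chr11:63131207-63131456.
Pmp22 promoter, first start: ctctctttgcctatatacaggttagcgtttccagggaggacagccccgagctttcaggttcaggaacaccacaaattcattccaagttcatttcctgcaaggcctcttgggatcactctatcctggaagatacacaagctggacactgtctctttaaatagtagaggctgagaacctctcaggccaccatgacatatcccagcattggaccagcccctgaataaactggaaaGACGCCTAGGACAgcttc
Pmp22 promoter, second start: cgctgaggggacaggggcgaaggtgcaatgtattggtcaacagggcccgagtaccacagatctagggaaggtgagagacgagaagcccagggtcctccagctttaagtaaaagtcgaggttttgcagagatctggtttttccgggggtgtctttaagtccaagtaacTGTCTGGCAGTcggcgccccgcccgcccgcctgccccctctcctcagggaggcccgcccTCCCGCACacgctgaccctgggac
In the first promoter 13 bases lay in shared footprints, and in the second 19. The second promoter held the SP/KLF letters GGGCGGG, which the first did not.

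Mbp, which encodes the basic protein that holds the inner faces of the myelin membrane together, lies at chr18:82475146-82585637 on the plus strand and is the longest of the 7 genes. Its 10 coding starts form a group of 3 for the long Golli transcripts and, 79.3 kb further on, a group of 7 for the classic myelin transcripts. The Golli starts read 0.941 and 0.968 (173 and 165 tags). The classic starts read 0.729 and 0.569 (134 and 97 tags), with lowest FDRs of 0.00275 and 0.0306. The peak at the classic starts was thus the weaker in both libraries, though in replicate 1 the intervals of the 2 groups overlapped (0.611 to 0.863 against 0.806 to 1.09). The 30 bp centred on its shared footprint, 79270 bp past the gene start, held both the EGR letters and the CAGCTG letters.

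Stronger peaks of Mbp lay in its introns. The 3 highest were 93.9 kb (7.83 and 3.37), 51.2 kb (3.26 and 2.43) and 92.7 kb (1.97 and 2.10) past the gene start. The first of these held the CTCF core letters at a shared footprint and was higher in replicate 1. In the 10 kb before the classic starts, where Schwann cell enhancers of Mbp are known, there was 1 peak, in replicate 1 alone, 8767 bp upstream of them (0.533, 98 tags). The locus held 14 shared peaks, 6.65 per 100 kb, near the middle of coding loci (54.2% had fewer), and none lay at the start of another gene.

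S100b, a calcium-binding protein used as a marker of Schwann cells and of other glia, lies at chr10:76253853-76261159 on the plus strand with 1 coding start. Its promoter peak read 0.734 and 2.02 (135 and 345 tags), a log2 ratio of replicate 2 over replicate 1 of 1.46. Only 0.423% of open coding promoters had a larger ratio. An intron peak 4368 bp past the start was steadier (1.36 and 1.65, 251 and 281 tags) and was higher than the promoter in replicate 1 and lower in replicate 2. The highest of the 6 shared peaks in the locus belonged to the start of the neighbour Prmt2, 15982 bp upstream (5.51 and 7.14). The locus held 5.59 shared peaks per 100 kb, with 46.5% of coding loci below it.

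The S100b intron peak is shown because it is the gene's own peak that both libraries read alike, chr10:76258121-76258320 on the plus strand, with shared footprint bases in capitals.
S100b intron peak: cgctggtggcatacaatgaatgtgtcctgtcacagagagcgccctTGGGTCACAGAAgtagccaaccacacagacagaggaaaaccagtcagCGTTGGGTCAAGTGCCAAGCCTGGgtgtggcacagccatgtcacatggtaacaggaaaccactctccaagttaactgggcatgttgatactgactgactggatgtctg
It held the RUNX letters TGTGGTT near its midpoint and the SOX letters ACAATG nearer to its edge, outside the central 150 bp. The 36 shared footprint bases covered neither.

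Across the 7 loci there were 128 peaks in replicate 1 and 138 in replicate 2, of which 98 were shared. The peaks of 1 library were low: 28 of the 30 in replicate 1 and 33 of the 40 in replicate 2 were under 1, with medians of 0.473 and 0.569. Shared peaks at the genes' own starts (14) had a median geometric mean of 1.59, those at starts of other genes (17) 3.43, and those away from starts (67) 1.20. Among the 3 highest peaks of each locus, 21 in all, 10 lay away from starts, 7 at starts of other genes and 4 at the genes' own starts. The own starts belonged to Egr2, Pmp22 and S100b. A shared footprint was found in 81 of the 98 shared peaks (82.7%), against 74.5% of all shared peaks of the genome. In total 209 footprints were shared, from 9 in the S100b locus to 49 in that of Erbb3.

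**Figure D2:**
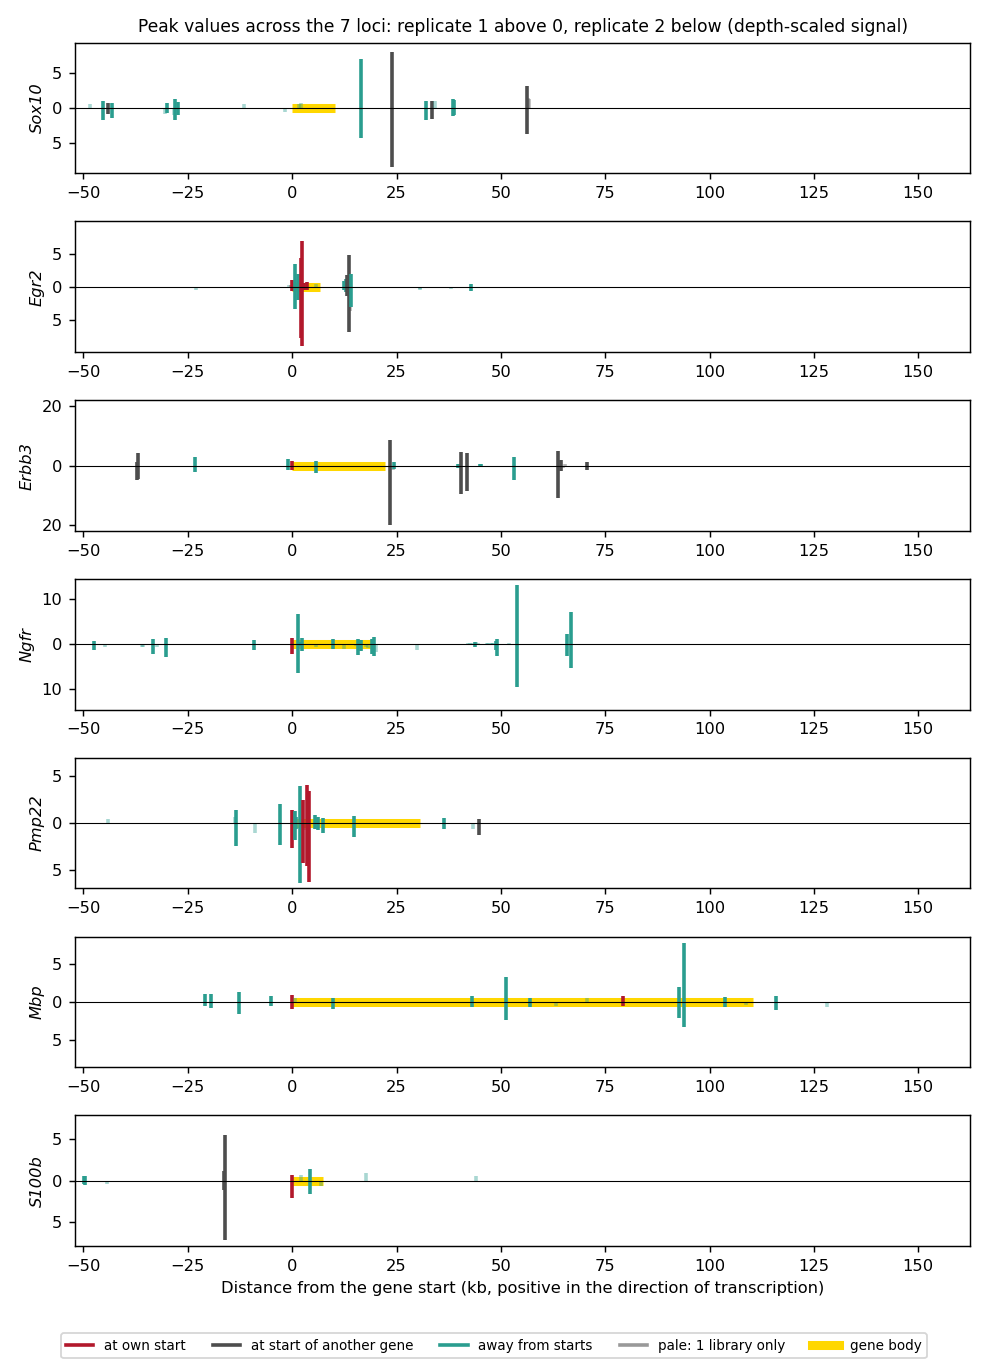
Peak values (vertical, depth-scaled signal, replicate 1 upward and replicate 2 downward) by distance from each gene's start in kb, with the gene body as a yellow bar, red for peaks at the gene's own starts, grey for starts of other genes, green for peaks away from starts and pale colour for peaks of 1 library; 1 Pmp22 peak is not drawn. The tallest lines are away from starts in the Ngfr and Mbp loci, at starts of other genes in the Sox10, Erbb3 and S100b loci, and at the gene's own start in the Egr2 locus.

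The libraries read the loci with a spread like that of the genome. The median log2 ratio of replicate 2 over replicate 1 was 0.21 over the 98 shared peaks and 0.23 over all 95319 shared peaks. Of the 98, 67 were higher in replicate 2, against 64.6% of all shared peaks in the genome. The 95% counting intervals stood apart at 55 of the 98, while over the genome they did so at 51.4%, so differences beyond counting error were common everywhere. Outside the central 95% of the genome's ratios (from -0.88 to 1.36) were 6 of the 98 peaks. Above it lay the S100b promoter, a Pmp22 peak 44.8 kb past the start (0.479 and 1.23) and the Rps26 start in the Erbb3 locus (1.12 and 4.68). Below it lay the Mbp intron peak at 93.9 kb, an Mbp peak 20.9 kb upstream (1.02 and 0.552) and a peak in the Ado exon of the Egr2 locus (0.897 and 0.481).

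**Figure D3:**
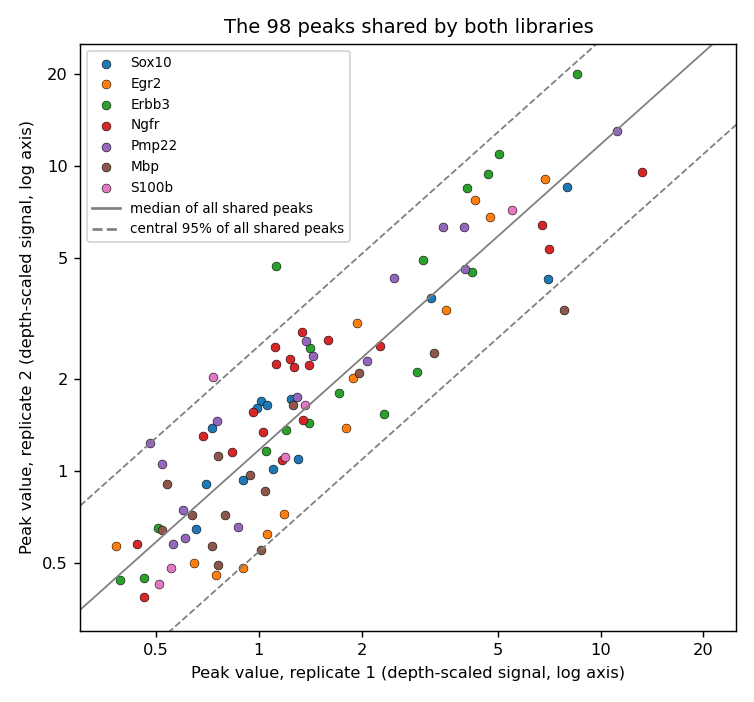
Values of the 98 shared peaks in replicate 1 (horizontal) and replicate 2 (vertical), both on log axes in depth-scaled signal, coloured by locus; the solid line is the median ratio of all shared peaks in the genome and the dashed lines their central 95%. Most points lie between the dashed lines, with the Erbb3 locus peak of 1.12 and 4.68 and the S100b promoter above them and the Mbp intron peak of 7.83 and 3.37 below.

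SOX and TEAD letters were less frequent in these peaks than in all shared peaks of the genome, while EGR letters were not. Searching 150 bp around each peak midpoint on both strands, the SOX letters ACAAAG or ACAATG, the EGR letters GNGTGGGNG or the TEAD letters ACATTCC occurred in 13 of the 98 shared peaks (13.3%), against 20.9% of all shared peaks. SOX letters were in 5, EGR letters in 10 and TEAD letters in 0. Over all 95319 shared peaks the counts were 12152, 6690 and 2237. Away from starts, SOX letters were in 3 of 67 peaks (4.48%, against 14.4% of such peaks in the genome) and EGR letters in 5 of 67 (7.46%, against 6.03%). Near starts, EGR letters were in 5 of 31 (16.1%, against 9.78%) and SOX letters in 2 of 31 (6.45%, against 8.27%). The counts are small, and a match is a description of the letters, not evidence of binding. CTCF core letters were in 9 of the 67 peaks away from starts (13.4%, against 8.42%), and the CAGCTG letters in 16 of 67 (23.9%, against 23.1%). Near starts the CTCF core letters were in 1 of 31 (3.23%, against 5.34%) and the CAGCTG letters in 6 of 31 (19.4%, against 12.3%).

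**Figure D4:**
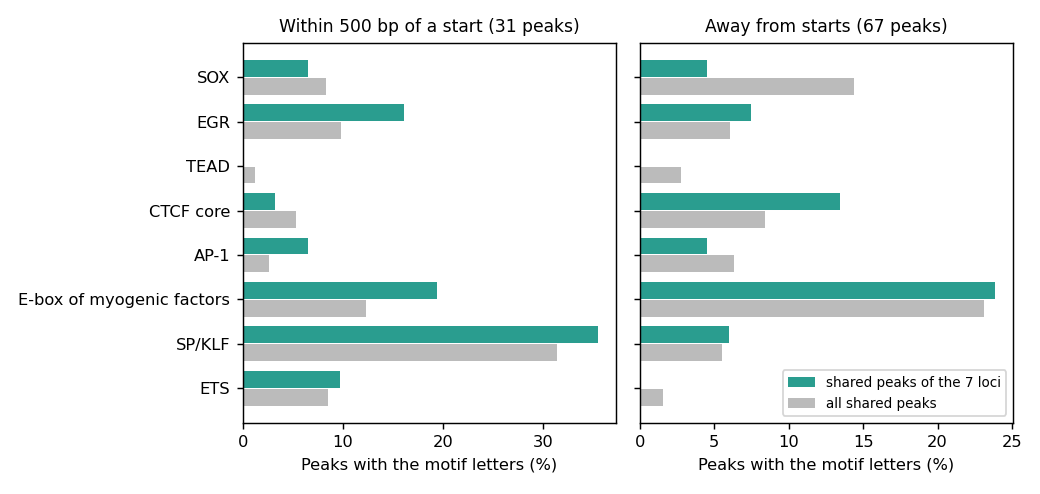
Percentage of shared peaks that hold each motif's letters within 150 bp around the midpoint, for the 7 loci (green) and all shared peaks of the genome (grey), for peaks within 500 bp of a start (left, 31 peaks of the loci) and away from starts (right, 67 peaks). SOX letters away from starts are at 4.48% against 14.4%, and CTCF core letters at 13.4% against 8.42%.

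The 30 bp centred on footprints shared by both libraries were searched as well. SOX letters were found at 1 of the 209 shared footprints of the loci (0.478%, against 1.67% of all shared footprints) and EGR letters at 4 (1.91%, against 1.92%). The windows of 30 bases around the SOX match and around both EGR matches in introns are shown, each in the direction of its gene (plus strand for Egr2, minus strand for the others), with the matched letters in capitals. The SOX match lies at the Rps26 start in the Erbb3 locus and the EGR matches in Egr2 and Ngfr.
SOX at the Rps26 start, chr10:128626852-128626881: agtcgtactacaactcccACAATGcatctc
EGR in Egr2, chr10:67536935-67536964: atctggtcgCCCCCACGCagcggaccgccc
EGR in Ngfr, chr11:95571301-95571330: ccaggtccCTCCCACCCaggcctcatctag
The remaining EGR matches were at the classic Mbp starts and at the Zc3h10 start in the Erbb3 locus.

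Other genes of the same pathway gave a wider view. Of 51 further Schwann cell and myelin genes 42 were open in both libraries (82.4%, against 66% of coding genes), with a median value of 3.55 over the open ones. Among 15 regulators 13 were open, led by Yy1 (10.8 and 22.2), Jun (10.9 and 20.5), Hdac1 (9.09 and 17.3) and Tead1 (12.4 and 11.8), all of them expressed in many cell types. Pou3f1 (Oct6), which precedes Egr2 in the lineage, and Pou3f2 (Brn2) had a peak in replicate 2 alone, at 0.534 and 0.910. Around the Pou3f1 start, however, 800 bases in replicate 1 and 693 in replicate 2 were listed at an FDR under 0.05, so a missing peak there does not show closed chromatin. Among 12 signalling genes 11 were open, led by Dag1 (15.8 and 27.9), Lamc1 (8.94 and 14.4), Lgi4 (6.77 and 8.53) and Adam22 (4.85 and 7.18). Lgi4 is a secreted Schwann cell protein and Adam22 its receptor, while Dhh, the hedgehog ligand of Schwann cells, had a peak in replicate 1 alone (0.571). Erbb2, the partner of Erbb3, read 2.04 and 2.81, and its ligand gene Nrg1 3.89 and 3.75.

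Among 15 genes of myelin proteins and lipids 11 were open (73.3%, near the 66% of all coding genes). Prx, the periaxin of peripheral myelin, read 9.86 and 13.5, and Cnp, an enzyme of non-compact myelin, read 3.43 and 3.46. Mag, Gjb1 and Cldn19, all genes of the myelin sheath, had no promoter peak in either library. Among 9 genes of immature and non-myelinating Schwann cells 7 were open (77.8%), led by Ncam1 (2.91 and 6.09), Cadm4 (3.92 and 4.54), Fabp7 (1.51 and 1.55) and Artn (1.29 and 1.63), while Cdh19 and Gfap had no peak. All 8 neurotrophins and partners of NGFR were open, led by Sorcs2 (6.04 and 6.94), Sort1 (3.89 and 5.56), Ntrk2 (3.94 and 4.06) and Bdnf (2.5 and 3.06).

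**Figure D5:**
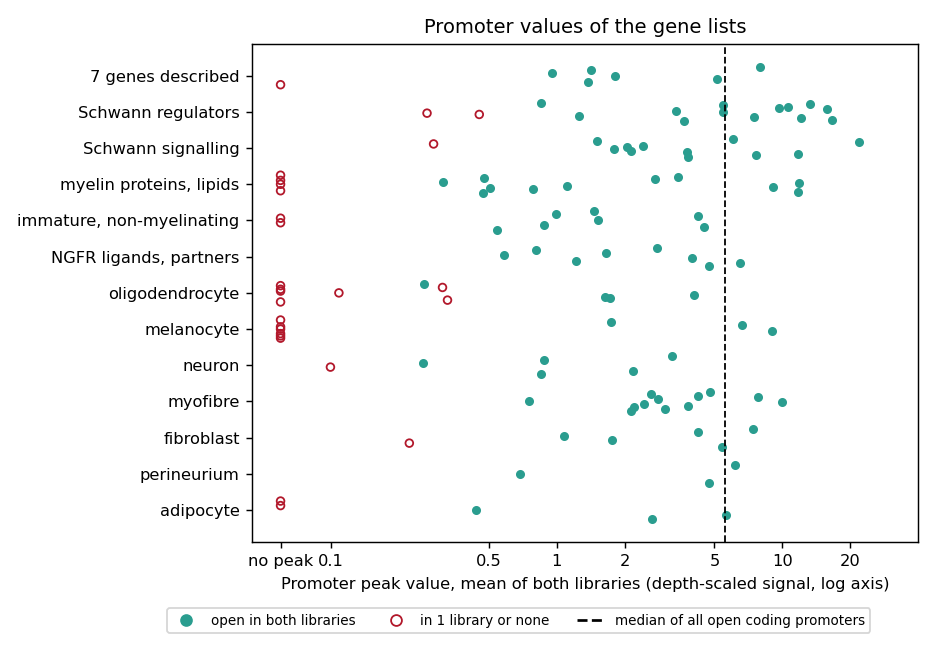
Promoter value of every gene in 13 lists, as the mean of both libraries in depth-scaled signal on a log axis, with filled green points for promoters open in both libraries, open red circles for those with a peak in 1 library or none, and a dashed line at the median of all open coding promoters (5.59). The Schwann regulators reach the highest values of the Schwann cell lists apart from Dag1, and 6 of the 9 melanocyte genes sit at no peak.

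Markers of cells that share these genes, or that lie beside them in muscle, were read in the same way, and their part in the values above was not tested. The counts are to be read against the 66% of all coding genes that were open. Oligodendrocytes, the myelin cells of the central nervous system, had 4 of 11 genes open in both libraries (Myrf, Olig1, Nkx6-2 and Aspa), with summed values of 9.61 and 7.21, and Ermn, Hapln2, Mobp and Opalin had no peak. Mog, Olig2 and Gpr17 had one in replicate 1 alone. Melanocytes, which also express Sox10, Erbb3 and S100b, had 3 of 9 open with sums of 13.7 and 21. These were Pmel, whose peak also lay at the start of Cdk2, Mitf and Mc1r, while the pigment genes Tyr, Tyrp1, Dct, Mlana, Slc45a2 and Oca2 had no peak. Neuronal genes were open in 5 of 6 (all but Stmn2, seen in replicate 2 alone), with sums of 7.16 and 7.85, fibroblast genes in 5 of 6 (all but Lum, in replicate 1 alone), with 15.1 and 25, and perineurial genes in 3 of 3, with 12.7 and 10.4. Adipocyte genes were open in 3 of 5 (60%), with 8.65 and 8.76, and Adipoq and Cidec had no peak. The 7 Schwann cell and myelin genes summed to 15.4 and 21.9, and the 12 myofibre genes to 35.2 and 57.9. Since the lists differ in size, these sums do not rank the cell types or measure their shares of the tissue.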

How the data were processed

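Members and gene lists were chosen with earlier results of these data known. Peak values were deposited by the authors as a signal scaled to library depth, per the values: 100% in each library were whole multiples of 1 step within 0.05 of a step. According to deposited sample notes, each library was processed alone from filtered alignments to mm10, and the per-position p-value type of number is the FDR as deposited by the authors, listed only under 0.05. Footprints were deposited with the same value on every line, so their positions alone were used. The aligner, the peak and footprint callers, their versions and the tag-counting window were not given in the sources used here. Whether CAST reads mapped less often to this C57BL/6 reference was not analysed here.

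The wider of 2 deposited peak sets was used. Peaks and footprints of the libraries were paired 1 to 1 when they overlapped by at least 1 bp, the best overlap taken first, and coordinates are those of the common stretch. A peak was at a start when its midpoint lay within 500 bp of an annotated start. Values of paired peaks were joined as a geometric mean. Motifs were exact letter searches on both strands, in 150 bp of a peak, 30 bp of a footprint or 300 bases of a RefSeq promoter. No test was run, since 1 group of 2 libraries allows none between conditions, and counts stand beside the same over all coding genes or peaks. No pattern across conditions exists, so no gene of like pattern is named.

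By rule, text names all 7 genes, the 4 highest open genes and all unopened genes of each list, each locus's promoter peaks, its 3 highest shared peaks and the highest of 1 library. Some items the rule selects are not reported here. Other peaks, motif windows and Erbb2 and Nrg1 were chosen after their values were seen. Alternatives were the stricter peak set, 50% reciprocal overlap, equal numbers of peaks, each library alone, promoters of 250 and 1000 bp, flanks of 10 and 100 kb, and a 300 bp motif window. Pairing and motif search were tested on simulated data. Python 3.11.15, numpy 2.4.6, pandas 2.3.3 and scipy 1.17.1 were used.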

Additional observations from a re-analysis of the deposited data

How the results depend on the processing

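No paired analysis was possible because there was 1 group. The number of the 7 genes with an open promoter was 6 under most settings and 5 under the stricter peak set (without Ngfr) and under 50% reciprocal overlap (without Erbb3). Sox10 had no shared promoter peak under any of them. Shared peaks in the 7 loci fell from 98 to 58 with the stricter set and to 55 with flanks of 10 kb. Single libraries held 128 to 138 peaks there. Shared footprints numbered 209, 113 with flanks of 10 kb, and 364 to 410 in single libraries. Peaks with SOX, EGR or TEAD letters numbered 13, 32 in windows of 300 bp, and 19 to 23 in single libraries. Oligodendrocyte promoters numbered 4 in both libraries and 4 to 7 in single ones. Wider windows and single libraries hold more sequence or unpaired peaks by construction. The lowest listed peaks of the whole genome had 8 tags in replicate 1 and 6 in replicate 2. These counts are not the limit of detection at a given site, which was not determined, and weak openings may have been missed.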
